A study of Homo sapiens with 6 samples.

Results

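Divergent promoters, stretches of DNA from which 2 neighbouring protein-coding genes are transcribed away from each other, were examined in accessible chromatin of EndoC-βH3 cells. An accessible region counted as a divergent promoter if it overlapped the interval between a start site on the minus strand and a start site on the plus strand of different protein-coding genes of GENCODE release 44, with the minus-strand site on the left and no more than 1000 bases between the sites. The rule used only positions and no measured value. On the 22 autosomes it chose 1306 of 108542 accessible regions, which is 6.72% of the 19445 autosomal promoter regions, here all regions within 2 kb of the start site of a protein-coding transcript. The 18139 promoter regions that did not meet the rule, named other promoters below, served as the comparison.

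EndoC-βH3 is a human pancreatic beta cell line in which the immortalising transgenes can be excised by a Cre recombinase that 4-hydroxytamoxifen (4-OHT) switches on. ATAC-seq, in which the transposase Tn5 cuts and tags open chromatin, was done on 100000 cells per library of 3 senescent and 3 non-senescent samples of this single line, all labelled wild type. The senescent cells had been treated with 4-OHT for 3 weeks and the non-senescent cells are labelled as control. Each region carried 1 value, the authors' mean over the 6 libraries of the normalised read count, named mean signal below. It had no value per library, so differences between senescent and non-senescent cells were not tested, no error between replicates could be given for any value, and the depth of single libraries is unknown. Regions are not replicates, and all differences below are descriptions over regions without a p-value. The label of the cells was checked at marker genes. All 16 beta cell markers examined had an accessible promoter, with a median of their highest mean signals of 1735. INS, which encodes insulin, reached 7894. Of 14 markers of other cell types, 10 had one, with a median of 142. The highest of these were at CPA1, an acinar carboxypeptidase, with 2101 and at KRT19, a keratin of duct cells, with 1059. The sets overlapped. The beta cell markers NKX2-2 with 405, ABCC8 with 509, SLC30A8 with 559, KCNJ11 with 613 and MAFA with 641 lay below both. The part of CPA1 and KRT19 in the results was not tested.

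At a divergent promoter the start sites face away from each other across a nucleosome-depleted stretch. Such promoters are known to be rich in CpG, to lack TATA boxes mostly, and to carry sites for ETS factors, NRF1 and NFY. They often serve widely expressed genes of DNA repair, of mitochondria and of protein folding, and pairs of histone H2A and H2B genes. In promoters, the CCAAT box is bound by NFY, the GC box by SP1, and the CRE by CREB family factors.

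The DNA between the start sites shows how differently such promoters are built. Some intervals of up to 300 bases are printed from hg38, plus strand. The left end is the start site of the first gene, transcribed leftwards, and the right end is the start site of the second gene, transcribed rightwards. Capitals mark exact matches on either strand to the NFY box (CCAAT). They also mark the ETS motif CCGGAAG and the NRF1 motif GCATGCGC. In the histone pairs they mark the TATA box (TATAAA) as well. COL4A1 and COL4A2 encode the chains of basement membrane collagen IV (chr13:110307157-110307284). SURF1 serves cytochrome oxidase assembly and SURF2 lies beside it (chr9:133356487-133356550). SARS2 is the mitochondrial seryl-tRNA synthetase and MRPS12 a mitochondrial ribosomal protein (chr19:38930763-38930944). U2AF1L4 is a splicing factor and PSENEN a subunit of gamma-secretase (chr19:35745418-35745651). TRMT2A is a tRNA methyltransferase and RANBP1 a regulator of the GTPase RAN (chr22:20117392-20117424). These 5 belong to a list of well-known divergent pairs, of which ZAR1L/BRCA2, 146 bases with 1 ETS match, is not printed. The histone pairs H2BC21/H2AC20 (chr1:149886682-149886918) and H2BC4/H2AC6 (chr6:26123926-26124172) and the pair CGGBP1/ZNF654 (chr3:88059005-88059255) were added after their values had been seen, as the highest pairs of the histone and zinc finger lists.
COL4A1/COL4A2: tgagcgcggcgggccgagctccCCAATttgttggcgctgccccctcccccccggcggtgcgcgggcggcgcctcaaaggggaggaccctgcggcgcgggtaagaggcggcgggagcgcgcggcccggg
SURF1/SURF2: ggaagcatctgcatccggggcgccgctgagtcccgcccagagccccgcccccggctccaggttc
SARS2/MRPS12: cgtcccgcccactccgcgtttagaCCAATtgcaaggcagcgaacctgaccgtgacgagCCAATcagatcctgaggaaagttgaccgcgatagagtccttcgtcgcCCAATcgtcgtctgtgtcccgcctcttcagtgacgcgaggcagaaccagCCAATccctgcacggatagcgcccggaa
U2AF1L4/PSENEN: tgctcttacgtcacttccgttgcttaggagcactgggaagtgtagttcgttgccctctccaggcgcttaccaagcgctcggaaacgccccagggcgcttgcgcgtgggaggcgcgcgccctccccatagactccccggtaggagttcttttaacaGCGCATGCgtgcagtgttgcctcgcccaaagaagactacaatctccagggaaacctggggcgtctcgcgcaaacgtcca
TRMT2A/RANBP1: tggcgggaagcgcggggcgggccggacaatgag
H2BC21/H2AC20: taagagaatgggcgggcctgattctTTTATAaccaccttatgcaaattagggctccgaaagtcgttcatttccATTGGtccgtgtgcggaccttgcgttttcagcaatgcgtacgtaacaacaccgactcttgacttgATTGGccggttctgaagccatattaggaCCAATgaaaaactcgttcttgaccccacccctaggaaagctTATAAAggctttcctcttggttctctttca
H2BC4/H2AC6: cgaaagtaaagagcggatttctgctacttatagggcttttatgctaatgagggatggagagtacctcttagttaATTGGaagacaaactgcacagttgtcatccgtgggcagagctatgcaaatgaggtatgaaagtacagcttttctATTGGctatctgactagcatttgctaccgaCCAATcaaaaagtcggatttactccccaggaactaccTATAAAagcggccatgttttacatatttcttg
CGGBP1/ZNF654: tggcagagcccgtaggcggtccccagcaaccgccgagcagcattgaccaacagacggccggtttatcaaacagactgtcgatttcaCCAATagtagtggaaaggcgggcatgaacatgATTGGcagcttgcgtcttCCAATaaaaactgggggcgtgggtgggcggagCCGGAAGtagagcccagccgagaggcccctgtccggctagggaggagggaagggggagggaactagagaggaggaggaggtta

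The interval of SARS2/MRPS12 is 182 bases long and holds 4 CCAAT boxes, all in the same orientation. The interval of COL4A1/COL4A2 holds 1 CCAAT box in 128 bases with a GC content of 79.7%, and that of U2AF1L4/PSENEN 1 NRF1 match. The intervals of SURF1/SURF2, 64 bases, and TRMT2A/RANBP1, 33 bases, hold no match to the 4 motifs. H2BC21/H2AC20 carries 3 CCAAT boxes with a TATAAA near each end, each oriented towards the gene at that end. H2BC4/H2AC6 also carries 3 CCAAT boxes, and 1 TATAAA on the side of H2AC6. These histone intervals have a GC content of 46.0% and 41.3%. CGGBP1/ZNF654 carries 3 CCAAT boxes and 1 ETS match in 251 bases.

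The annotation held 1423 divergent pairs, which take in 2752 of 18773 autosomal protein-coding genes, or 14.7%. A region used here overlapped 1337 of these pairs, 94.0%, and none overlapped the other 86. In 922 pairs the canonical start sites of both genes, the annotation's chosen transcript for each gene, were the ones no more than 1000 bases apart. Of these, 900 had a region, or 97.6%. The 22 canonical pairs without one included ABCG5/ABCG8, the sterol transporters of liver and gut, DUOXA1/DUOX1 of hydrogen peroxide production in epithelia, CRYAB/HSPB2, both small heat shock proteins, NLRP7/NLRP2 of the germ line, and H2AC1/H2BC1, histones of the testis. LSM7/SPPL2B, BSCL2/GNG3, RGS19/OPRL1, FAM83H/IQANK1 and TRPM5/KCNQ1 were also among the 22. Whether these 22 pairs share a pattern of expression was not tested. Most members, 1244, lay at 1 pair, and 62 at 2 or more. The median mean signal was 1271 in the 873 members whose leading pair was canonical, and 1100 in the remaining 433.

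Divergent promoters had a higher mean signal than other promoters. Their median mean signal was 1215, with quartiles of 756 and 1836, against 467 for other promoters, with quartiles of 140 and 1036. The ratio of the medians was 2.60. Of the 1306 members, 1160 (88.8%) lay over the median of the other promoters. Many other promoters in the 2 kb window hold no start site themselves. Against the 12531 that do, with a median of 723, the ratio was 1.68. Regions that were no members but lay between a protein-coding gene and a divergent long noncoding RNA gene, 2227 in number, had a median of 1011, between the members and the other promoters that hold a start site. Longer regions gather more reads. Per kb of region the median was 909 in divergent, 759 in those with a long noncoding RNA, 620 in other promoters with a start site and 487 in all other promoters, so the order of the 4 groups was the same per length. For orientation, the 86251 autosomal regions outside promoters had a median mean signal of 77.0.

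**Figure D1:**
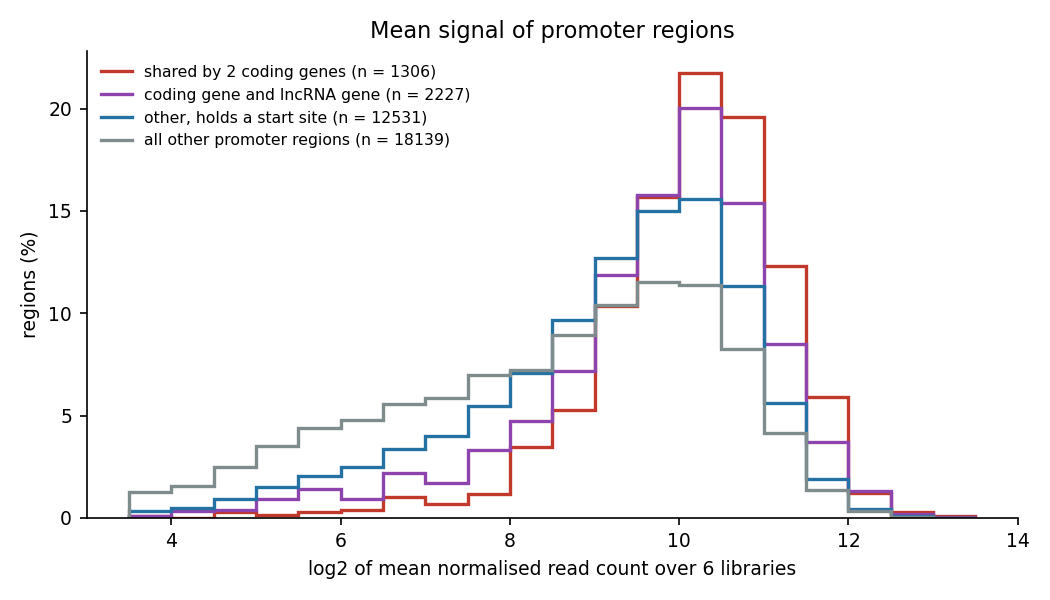
Distribution of the mean signal (x axis, log2 of the authors' mean normalised read count over 6 libraries) over promoter regions (y axis, percent of the group), for the 1306 divergent promoters, the 2227 other promoters divergent with a long noncoding RNA gene, the 12531 other promoters that hold a start site and all 18139 other promoters. The last group contains both groups before it. The divergent promoters have the smallest share of regions at low signal.

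All promoter regions were ranked by mean signal and split into 10 bins of equal size. The share of divergent promoters was higher in each bin than in the one before. In the lowest bin 7 regions were divergent, 0.360%, and in the highest bin 356, or 18.3%. The highest bin held 27.3% of the members. Most members of low signal did not hold both start sites of their leading pair. Each pair was scored at a single interval, that of the canonical start sites where both qualified and else the shortest. Of the 19 members with a mean signal under 100, 5 held both of these sites, whereas 1192 of all 1306 members (91.3%) did. Over all intervals, 1219 members covered a whole one, so some counted as not holding both do so at other start sites. The median was 1270 in the members that held both and 488 in the 114 that did not.

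**Figure D2:**
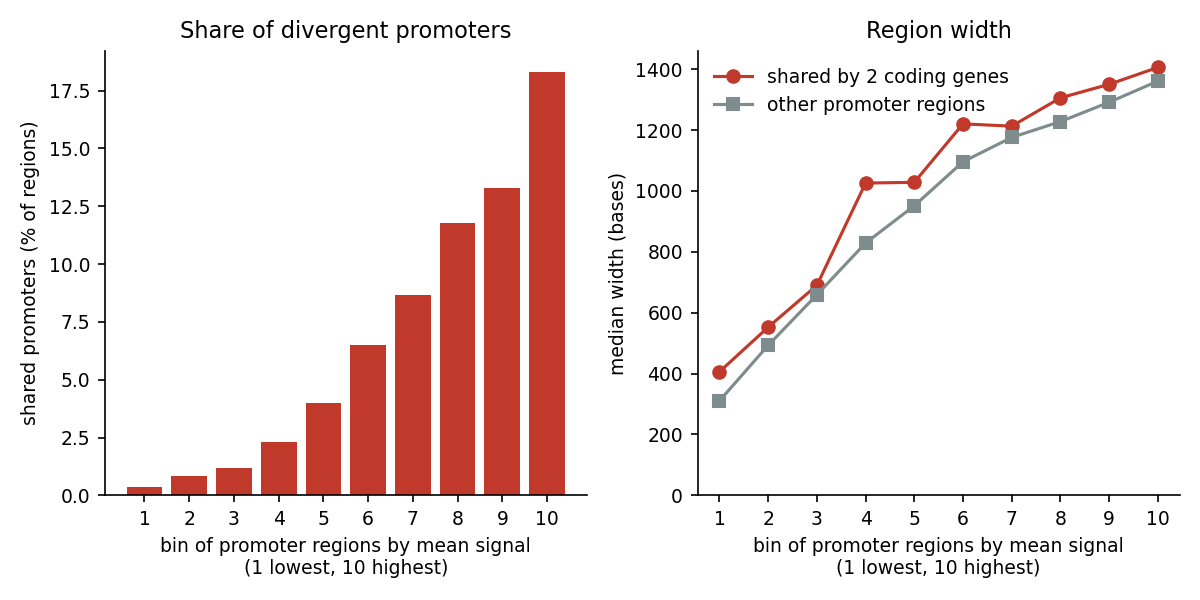
Left, percent of promoter regions that are divergent (y axis) in each of 10 equal bins of the autosomal promoter regions ranked by mean signal (x axis, 1 lowest). Right, median region width in bases (y axis) of divergent and other promoters in the same bins. The share climbs from 0.360% to 18.3%, and the divergent regions are the wider ones in each bin.

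Other promoters were then weighted to the members' shares of the 10 bins, so that groups of like mean signal were compared. The median width was 1299 bases in divergent promoters and 1216 in other promoters so weighted, against 943 without weights. A wide region overlaps an interval more easily than a narrow one, so width is not independent of the rule. The divergent regions were wider in every bin, by 95.5 bases in the lowest and 45 in the highest. The GC content of the central 300 bases was 65.7% in divergent promoters and 67.7% in the weighted others, and without weights both medians were 65.7%. The sign of this difference turned along the ranking. In the lowest bin the divergent promoters were richer in GC, 66.7% against 59.7%, and from bin 6 upwards they were poorer, 64.2% against 67.3% in the highest. The ratio of observed to expected CpG was 0.844 against 0.816 in the weighted others, and was the higher one in divergent promoters in every bin, 0.867 against 0.380 in the lowest and 0.831 against 0.823 in the highest. The value of the lowest bin rests on 7 divergent promoters, and bin 2 had 0.740 against 0.465. In the promoters divergent with a long noncoding RNA gene the median CpG ratio was 0.855, above that of the members, and their median GC content was 68.7%.

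Over the members as a group, the accessible region ran about as far past the minus-strand as past the plus-strand start site. The strand labels follow the orientation of the chromosome, so this does not show that single regions were evenly placed. In the 873 members with a canonical pair, the start sites lay a median of 233 bases apart, with quartiles of 121 and 396. The middle of the region lay a median of 119 bases from the middle of the interval, and within 100 bases in 42.6%. In the 820 such members that held both start sites, the region ran a median of 511 bases past the minus-strand start site, with quartiles of 379 and 678, and 503 bases past the plus-strand one, with quartiles of 369 and 672. In 8204 other promoters at a single canonical start site, the region ran 614 bases into the gene and 482 bases upstream of it, and with weights for mean signal 655 and 557. The stretch inside each gene was thus shorter at divergent promoters, while the whole region was longer.

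Signal was higher where the start sites were farther apart. The spacing was that of the canonical start sites where both qualified, and else the shortest of the pair. The 433 members led by a pair that was not canonical thus entered with their shortest spacing. Their median mean signal was 1100, against 1271 in the others. Canonical pairs were not scored alone by spacing, so the share of this choice in the order was not tested. The 351 members with 0 to 100 bases between the sites had a median mean signal of 896, the 332 with up to 200 bases 1139, the 225 with up to 300 bases 1473, the 207 with up to 500 bases 1533 and the 191 with up to 1000 bases 1609. The classes overlapped widely, with quartiles of 601 and 1348 in the closest class and of 999 and 2388 in the widest. Per kb of region the order was another, from 754 and 869 to a highest value of 1204 in the class of up to 300 bases, followed by 1101 and 1006. The GC content fell from 66.7% in the closest class to 63.3% in the widest. A CCAAT box in the central 300 bases was least frequent in the closest pairs, 18.8%, and reached 42.7% in the class of up to 300 bases and 43.5% in the widest. The ETS match had the opposite order of its ends, with 29.3% in the closest pairs and 9.42% in the widest. Both shares were taken in the 300 bases about the region middle. With distant start sites these bases can miss the 50 bases before each site, where ETS matches were densest. How far this shaped the order by spacing was not tested.

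**Figure D3:**
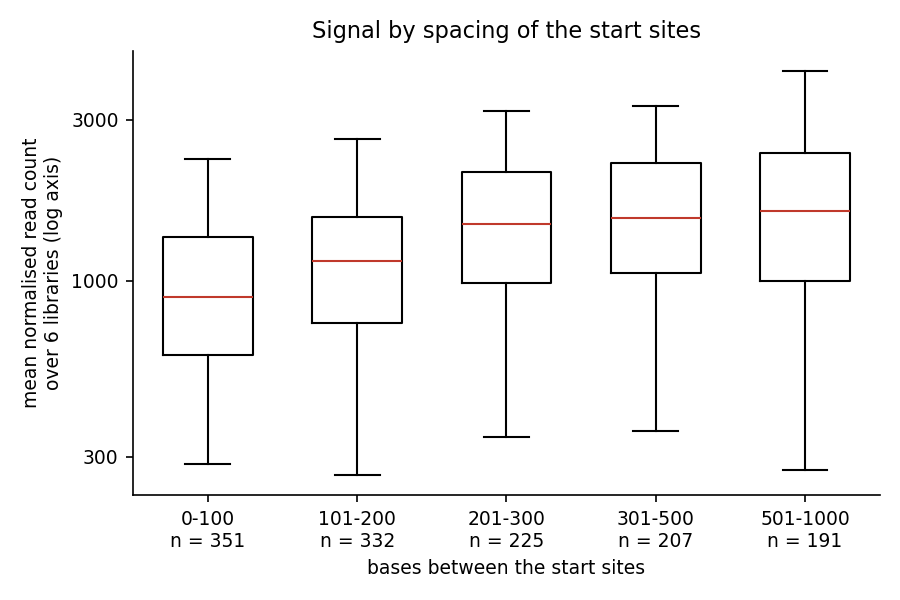
Mean signal (y axis, log scale) of divergent promoters by the number of bases between the start sites of the leading pair (x axis). Boxes give the quartiles, red lines the medians and whiskers the range from the 5th to the 95th percentile of the regions. The medians climb from 896 to 1609 and the boxes of neighbouring classes overlap.

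The sequence of the central 300 bases was searched on both strands for 10 short motifs. The ETS motif CCGGAAG, the core bound by GABPA, ELK and related factors, was in 268 divergent promoters, 20.5%, against 12.0% of other promoters weighted for mean signal and 9.67% of all promoters. The CCAAT box was in 417, or 31.9%, against 28.0% weighted and 24.1% of all. The NRF1 motif GCATGCGC, linked to genes of mitochondria, was in 4.29% against 3.08% and 2.20%. The GC box GGGCGG was common everywhere, with 69.9% against 66.1% and 55.4%. The YY1 motif AAGATGGCG was in 3.60% against 2.91% and 1.91%, the CRE TGACGTCA in 2.76% against 1.93% and 1.42%, and the E2F motifs TTTCCCGC or TTTGGCGC in 3.45% against 3.01% and 2.42%. The palindrome CTCGCGAG was in 1.84% against 1.48% and 1.04%. TATAAA was in 3.52% of divergent promoters, 3.16% of the weighted others and 4.81% of all promoters. The ZNF143 core ACTACAATT was rare, in 10 divergent promoters or 0.766%, against 0.270% and 0.206%. For the weighted YY1 difference, a 95% interval from counting error alone was -0.189 to 1.85 percentage points, so no direction is given for it. It covers the members' share only, with regions taken as independent and the share of the others as fixed. It is no error between samples, and none of the other motif differences was tested. No interval was computed for the CRE, the E2F motifs, the palindrome and the ZNF143 core. No motif contains another of the list. A match is a string in the reference, not a bound site.

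**Figure D4:**
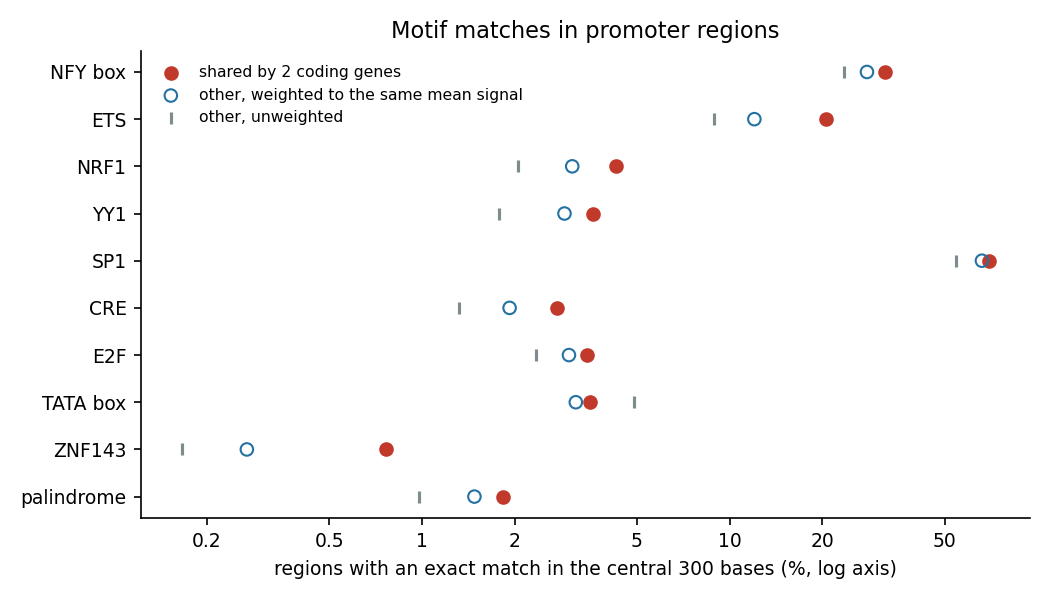
Percent of promoter regions with at least 1 exact match in the central 300 bases (x axis, log scale) for 10 motifs (y axis), in divergent promoters, in other promoters weighted to the same mean signal and in other promoters without weights. The ETS match is in 20.5% of divergent and 12.0% of weighted other promoters, while the TATA box is close in both, 3.52% and 3.16%.

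The motifs went with signal in different ways. Divergent promoters with a CCAAT box had a median mean signal of 1595, and those without one 1088. With an ETS match it was 1147 and without one 1252. The shares of both motifs also differed by the spacing of the start sites, as given above, and these medians were not adjusted for spacing. The 10 promoters with the ZNF143 core had a median of 2055. They included METTL8/DCAF17 at 2738, FGD6/VEZT at 2731 and DOCK4/ZNF277 at 2542. Of the 4 motifs for NFY, ETS, NRF1 and YY1, 663 members held none, 507 held 1 kind, 127 held 2 kinds and 9 held 3 kinds. Those with 2 kinds made up 9.72%, against 5.69% of the weighted others. Among the 9 with 3 kinds, whose median was 1521, were ANKRD11/SPG7 at 2521, INTS7/DTL at 2053 and ATP5PF/GABPA at 1838. ATP5PF/GABPA is the shared promoter of an ATP synthase subunit and of the ETS factor GABPA. The same 9 also took in TTC13/ARV1 at 1239, CORO7/DNAJA3 at 1059, BRAP/ACAD10 at 672 and RECQL5/SAP30BP at 613.

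Most motifs were concentrated between the start sites. In the 873 canonical intervals there were 3.24 CCAAT boxes per kb, against 0.758 per kb in the 500 bases downstream of each start site, and 396 intervals (45.4%) held at least 1. For the ETS motif the densities were 1.30 and 0.277 per kb, and 272 intervals (31.2%) held it. For NRF1 they were 0.382 and 0.0355, for the GC box 6.50 and 2.87 and for the CRE 0.185 and 0.0137 per kb. The YY1 motif was placed the other way round, with 0.0309 per kb between the start sites and 0.0951 per kb downstream.

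Lined up on canonical start sites, the NFY, ETS and YY1 motifs were each densest at the same distance in divergent and other promoters. The other start sites were the 8493 in regions without a divergent long noncoding RNA gene, some of which hold several genes. They were not weighted for mean signal. CCAAT boxes were densest from 100 to 50 bases upstream, with 21.5 matches per 100 start sites at divergent and 19.3 at other promoters. ETS matches were densest in the last 50 bases before the start site, with 15.2 and 8.17 matches per 100 start sites. YY1 matches were densest in the first 50 bases of the transcribed part, with 3.95 and 3.05. GC boxes were fewer at divergent start sites, with 46.4 against 55.3 matches per 100 in the last 50 bases. From 100 to 50 bases upstream it was 35.4 against 52.6. From 250 to 200 bases upstream they were more frequent at divergent start sites, 20.4 against 18.9, and farther upstream also. The start sites of a divergent promoter share their sequence, so that 1 match was counted for both.

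**Figure D5:**
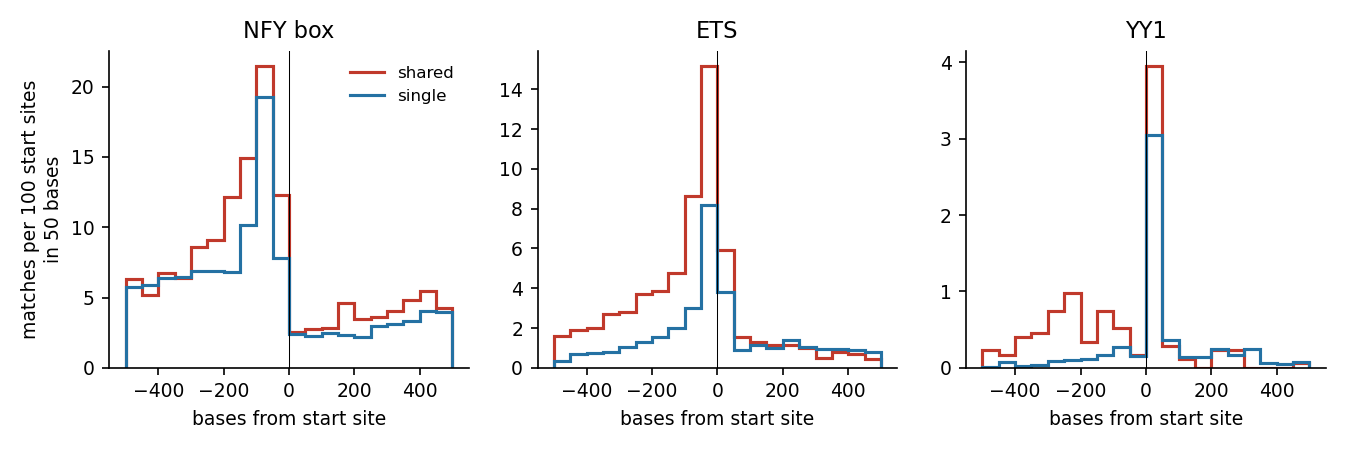
Matches per 100 start sites in steps of 50 bases (y axis) by distance from the start site (x axis, upstream negative). The curves are for the CCAAT box of NFY, the ETS motif and the YY1 motif. They cover 1746 start sites of divergent promoters and 8493 of other promoters without a divergent long noncoding RNA gene, labelled single and not weighted. The ETS peak just before the start site is 15.2 at divergent and 8.17 at these other promoters, and the other peaks lie closer together.

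Gene groups differed in how many of their members had a divergent partner. Where a pair had several regions, the one of highest mean signal was taken. Of all autosomal protein-coding genes it was 14.7%, and the median mean signal of all members was 1215. Of 126 genes of DNA repair and replication, 52 (41.3%) were in such pairs, and the 49 regions had a median of 1407. Of these 49 regions 46.9% held a CCAAT box, against 31.9% of all members. Of 65 chaperone genes, 25 (38.5%) were in pairs, with a median of 1533 over 24 regions, 54.2% of which held a CCAAT box. The highest were CCT3/TSACC at 4104, with a subunit of the cytosolic chaperonin, and HSPD1/HSPE1 at 3357, which encode the mitochondrial chaperonin and its co-chaperonin. Of 85 cell cycle genes, 27 (31.8%) were in pairs, with a median of 1203. CDCA3/USP5 was at 5358 and SHC1/CKS1B, with a subunit of cyclin-dependent kinases, at 4944.

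Genes of mitochondria were frequent in divergent pairs, and their signal was near that of all members. For the mitochondrial ribosome, 29 of 78 genes (37.2%) were in pairs, with a median of 1164 over 28 regions. TCP1/MRPL18 had 2573 and PPP1R10/MRPS18B 2100. For the respiratory chain and ATP synthase, a list that also takes in assembly factors, it was 33 of 89 genes (37.1%), with a median of 1100. Its highest pairs were both of complex I assembly factors, DALRD3/NDUFAF3 at 2975 and TEPSIN/NDUFAF8 at 2196. Of 34 aminoacyl-tRNA synthetases, 12 (35.3%) were in pairs, with a median of 1414 over 10 regions. EARS2/UBFD1, with the mitochondrial glutamyl enzyme, was at 2484. HARS1/HARS2, the cytosolic and mitochondrial histidyl enzymes, formed the pair in which both genes were on the list, with 959. For the cytosolic ribosome, 19 of 75 genes (25.3%) were in pairs, with a median of 1018. CCAAT boxes were less frequent there, in 10.5%. MICOS13/RPL36 was at 2169 and RPL7/RDH10 at 2089.

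Replication-dependent histone genes, which are transcribed in S phase, paired with each other. Of 71 genes 26 (36.6%) were in 14 pairs, 13 of which joined 2 histone genes. The 12 regions had a median mean signal of 1308, from 656 at H3C7/H2BC9 to 4581 at H2BC21/H2AC20. After this highest pair came H2BC4/H2AC6 with 2189, H2BC11/H2AC11 with 1874, H2BC12/H2AC12 with 1729, H2AC15/H2BC15 with 1640 and H2BC8/H2AC8 with 1418. H2BC13/H2AC13 had 1198, H2AC14/H2BC14 1086, H2AC25/H2BC26 1044, H2AC7/H2BC7 982 and H2AC17/H2BC17 951. The H2A and H2B start sites of these 11 pairs lay 194 to 251 bases apart, whereas those of H3C7/H2BC9 lay 979 bases apart. The central 300 bases of these regions had a median GC content of 47.3%, against 65.7% in all members. A CCAAT box was in 8 of 12 regions there, TATAAA in 5 of 12 and an ETS match in none. The central bases of H2BC4/H2AC6 lay outside the printed interval, so the CCAAT boxes and TATAAA printed for it are not counted. In all, 46 members held TATAAA in the central bases. Histone pair regions share stretches of at least 300 bases with at least 90% identity, and their values are uncertain as far as reads were shared between these copies.

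Zinc finger genes did not stand above the background, with 61 of 498 (12.2%) in pairs and a median of 1072. An ETS match was in 35.4% of their 48 regions, against 20.5% of all members. CGGBP1/ZNF654 was at 2723 and DOCK4/ZNF277 at 2542, and in 11 pairs both genes were zinc finger genes, such as ZNF668/ZNF646 at 2249 and ZNF829/ZNF568 at 728. Of 69 genes of interferon response and antigen presentation, 12 (17.4%) were in pairs, with a median of 675, and 2 of the 9 regions lay over the median of all members. These 2 were PSME2/RNF31, with the proteasome activator PSME2, at 2441 and PATL2/B2M, with beta-2 microglobulin, at 2143. PARP9/DTX3L, which encode partner proteins, had 675 and HES4/ISG15, with the ubiquitin-like ISG15, 80.8. HES4/ISG15 was not a canonical pair, and its region ended before the ISG15 start site of the interval scored. The value of 80.8 is thus no measure of accessibility at that start site. Of 47 beta cell genes 1 was in a divergent pair. This was PAX6, an islet transcription factor, opposite the gene ENSG00000285283, with 3184.

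Of 16 well-known divergent pairs, 15 had a region. PPAT/PAICS, both of purine synthesis, was highest with 3756, followed by HSPD1/HSPE1, NPAT/ATM with 2830 and GART/SON with 2739. NPAT regulates histone genes and ATM is the kinase of the response to DNA breaks. PRKDC/MCM4, of end joining and of the replicative helicase, had 1569, SARS2/MRPS12 1458 and U2AF1L4/PSENEN 1382. Below the median of all members were TRMT2A/RANBP1 with 1015, TMEM258/FEN1 with 997, COL4A1/COL4A2 with 750, TK1/AFMID with 739, ZAR1L/BRCA2 with 677, TAP1/PSMB9 with 480 and SURF1/SURF2 with 353. Some regions were lopsided. That of COL4A1/COL4A2 was 2457 bases wide and ran 2112 bases into COL4A2 but 217 bases into COL4A1. That of SURF1/SURF2 ran 1004 bases into SURF2 and 33 bases into SURF1.

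Of the 5 highest mean signals of all members, 3 were at FAM72A/SRGAP2 (chr1:206202661-206204063) with 8702, SRGAP2B/FAM72D (chr1:145094788-145096247) with 7658 and FAM72B/SRGAP2C (chr1:121184081-121185572) with 5822. Coordinates are given as deposited, on hg38. These are copies of 1 human segmental duplication, and the regions were 98.3% to 99.3% identical. BOLA2/SLX1B with 3634 and BOLA2B/SLX1A with 3636 were 99.9% identical over 1544 bases. Reads of such copies can hardly be told apart, so the values of these 5 regions are uncertain. Without near-identical copies, the highest were MBOAT7/TSEN34 (chr19:54189290-54191584) with 7021, HDLBP/SEPTIN2 (chr2:241314799-241316589) with 5977, CDCA3/USP5 (chr12:6851252-6852713) with 5358, AKT1S1/TBC1D17 (chr19:49876256-49878341) with 4999 and TBC1D10B/MYL11 (chr16:30370420-30371357) with 4963. SHC1/CKS1B followed with 4944 and PASK/PPP1R7 with 4856. MBOAT7 is a phospholipid acyltransferase and TSEN34 a subunit of the tRNA splicing endonuclease, HDLBP binds RNA and SEPTIN2 is a cytoskeletal GTPase, and AKT1S1 is a component of mTORC1. Among the 10 highest, start sites were 56 bases apart at MBOAT7/TSEN34 and 995 bases at PASK/PPP1R7.

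The lowest members were MYL3/PTH1R with 13.7, FBN2/SLC27A6 with 25.1, CXCL14/SLC25A48 with 26.9, FILIP1L/CMSS1 with 30.0 and HES2/ESPN with 31.7. MYL3 is a myosin light chain of heart and slow muscle, PTH1R the receptor of parathyroid hormone, FBN2 a fibrillin of connective tissue, CXCL14 a chemokine and ESPN an actin-bundling protein of the inner ear. None of these 5 was a canonical pair. The regions of FBN2/SLC27A6 and CXCL14/SLC25A48 held both start sites of the interval scored, and the other 3 did not. The region of MYL3/PTH1R did not touch the interval scored, and met the rule at other start sites of the pair.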

How the data were processed

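Accessible chromatin was measured in 3 libraries per group. Per the study's methods, read pairs were trimmed (Trim Galore) and mapped to hg38 (Bowtie2), mitochondrial and duplicate reads were discarded, ends were moved for the Tn5 offset, and reads were counted in merged MACS2 peaks of all libraries. Versions are not given in the sources used here. The signal in the deposited table is a mean over 6 libraries of read counts scaled by the DESeq2 size factors of the authors. The other 5 columns hold the authors' own comparison (fold change, its error, test statistic, p-value, adjusted p-value) and were not used. The table has no column per library, so the planned count test of senescence was not run.

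Region starts were read as 0-based for overlaps and are printed as deposited. Start sites were those of all protein-coding transcripts of GENCODE release 44, overlap was at least 1 base, and sequence was read from hg38 in the central 300 bases of a region. Other promoters were weighted to the members' shares of 10 bins of mean signal. Medians, shares and weights were computed with Python 3.11.15, pandas 2.3.3 and pysam 0.24.0, and copies were sought with blastn 2.17.0. On simulated start sites, with a single one per gene, 100 of 100 divergent pairs were recovered. The simulated regions were built from the intervals found, so this checks the search for pairs only. Named pairs are the 10 members of highest and 5 of lowest mean signal, the listed well-known pairs with a region, and the 2 highest pairs of each gene list, with a few others named after their values were seen: those with rare motifs, copies, the histone pairs, pairs within a list, HES4/ISG15 and pairs without a region. Some pairs that this rule takes in are not reported here. The members and lists were chosen with earlier results of these data known.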

Additional observations from a re-analysis of the deposited data

How the results depend on the processing

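Of 94 values under alternative settings, 91 kept the sign of the reported value, 75 stayed within the limit set for them and 19 did not. The limit was the counting interval of the reported value, taken over the members alone, or 1.5 times for the number of regions. The number of divergent promoters was 793 with the outermost start site of each gene and 864 with canonical start sites, where the CCAAT difference was 6.89 percentage points instead of 3.96. Against other promoters that hold a start site, the ratio of mean signal was 1.68 instead of 2.60, the GC difference -2.67 instead of -2 percentage points, the CpG difference 0.0120 instead of 0.0284 and the GC box difference 0.767 instead of 3.78 points. The ratio of mean signal was 2.21 against other promoters within 1 kb and 1.87 per kb of region. Without weights for mean signal, the difference in width was 355.5 instead of 82.5 bases, in GC content 0, in CpG 0.0947, and in percentage points 8.41 for CCAAT, 11.6 for ETS, 15.5 for the GC box and -1.38 instead of 0.358 for TATAAA. In 500 central bases the differences were 10.9 points for ETS instead of 8.48, 2.61 for NRF1 instead of 1.21 and -0.517 for TATAAA, so no direction can be given for TATAAA. The cause was not tested. Leaving out the near-identical copies, an alternative chosen after seeing the data, left 1301 regions and a ratio of 2.59.

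No paired analysis was possible because no value per library was at hand, and for the same reason leaving out each replicate was not run.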
